A study of Mus musculus with 8 samples.

Results

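The Ugt1a cluster encodes UDP-glucuronosyltransferases, enzymes of the endoplasmic reticulum that join glucuronic acid to bilirubin, steroids, phenols and drugs. Its 9 annotated members (Ugt1a1, Ugt1a2, Ugt1a5, Ugt1a6a, Ugt1a6b, Ugt1a7c, Ugt1a8, Ugt1a9 and Ugt1a10) were taken by gene symbol from the 38087 entries of the deposited count tables. They were chosen by their counts in the libraries labelled as lacking Tgfbr1 and Tgfbr2, with earlier results of these data known, so their values are a description and carry no p-value. Each member starts at its own first exon, which encodes the part of the enzyme that binds the substrate, and splices it to a common set of later exons, which encode the part that binds UDP-glucuronic acid. The enzymes are best known from liver, gut and kidney. Ugt1a1 is the enzyme that conjugates bilirubin, and enzymes of the Ugt1a6 type act on small planar phenols. Transcription from the cluster is known to respond to the aryl hydrocarbon receptor (Ahr), to Nrf2 (gene Nfe2l2) and to nuclear receptors.

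RNA was sequenced from cardiac fibroblasts sorted as GFP-positive cells from the ventricles of mice. Each mouse had undergone transverse aortic constriction (TAC), a surgical pressure overload, at 8 to 10 weeks of age, and its cells were taken 4 weeks later. All 8 libraries came from mice with a tamoxifen-dependent Cre (MerCreMer) knocked into a fibroblast gene and a Cre-dependent eGFP reporter in the Rosa locus, tamoxifen was given to all of them, by injection on 2 days (100 mg/kg) and afterwards in chow (40 mg/kg), and no group without TAC was analysed here. The Postn-Cre control (libraries HK3 and HK4) and the Smad2/3 double knockout (DKO; HK15 and HK16), which also carried Smad2 flox/flox and Smad3 flox/flox, had Cre in Postn, a gene of activated fibroblasts, and form one sequencing run, called the Postn run here. The Tcf21-Cre control (HK6 and HK7) and the Tgfbr1/2 DKO (HK2 and HK4), which also carried flox/flox alleles of Tgfbr1 and Tgfbr2, had Cre in Tcf21, a gene of resident fibroblasts, and form the other, called the Tcf21 run. No loxP-targeted allele is listed for the controls. Both HK4 libraries are therefore named with their group. The labels do not say whether a library came from 1 mouse or from pooled mice, so p-values measure the spread between 2 libraries of a group, which may be technical.

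Library totals ran from 21477742 to 32594649 counts, so 3 counts correspond to 0.092 to 0.14 CPM (a count scaled to 1000000 counts in its library). The fibroblast markers Dcn and Pdgfra were present in every library, and the hepatocyte marker Alb was at 0 in every library. Totals of the targeted genes did not show their loss. Tgfbr1 was at 229 and 238 CPM in the Tcf21-Cre control and 181 and 193 in the Tgfbr1/2 DKO, and Tgfbr2 at 370 and 406 against 471 and 406. Smad2 and Smad3 were not called in the Smad2/3 comparison (edgeR's quasi-likelihood test, adjusted p = 0.747 and 0.702). Counts over a whole gene do not resolve the deleted part, so these values check nothing about recombination. Xist, the RNA of the inactive X chromosome in females, had 3.65 and 2.18 CPM in the Postn-Cre control and 277 and 75.3 CPM in the Smad2/3 DKO. The Y-linked genes Ddx3y and Kdm5d were present in all 8 libraries. Ddx3y had 164 and 222 CPM in the Postn-Cre control and 132 and 177 in the Smad2/3 DKO, and Kdm5d 34.0 and 21.3 against 37.3 and 30.4. Both Smad2/3 DKO libraries thus held Xist and Y-linked RNA. The part of sex in the Smad2/3 comparison was not tested. In the Tcf21 run Xist stayed between 1.07 and 1.75 CPM.

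In the GENCODE annotation of GRCm38 (mm10), the members span chr1:88055388-88220002 on the plus strand. Exons 2 to 5 lie at chr1:88215044-88218997 and their 1311 bases are identical in 9 of 9 members, so a read there belongs to no single member. The member-specific first coding exons are 879 to 954 bases long. Ugt1a10 comes first, followed by Ugt1a9, Ugt1a8, Ugt1a7c, Ugt1a6b, Ugt1a6a, Ugt1a5 and Ugt1a2, and Ugt1a1 is nearest the common exons. The annotated genes Ugt1a6b and Ugt1a6a start further upstream, at 88103252 and 88134809, than the first coding exons used here, which start at 88106862 and 88138378.

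**Figure D1:**
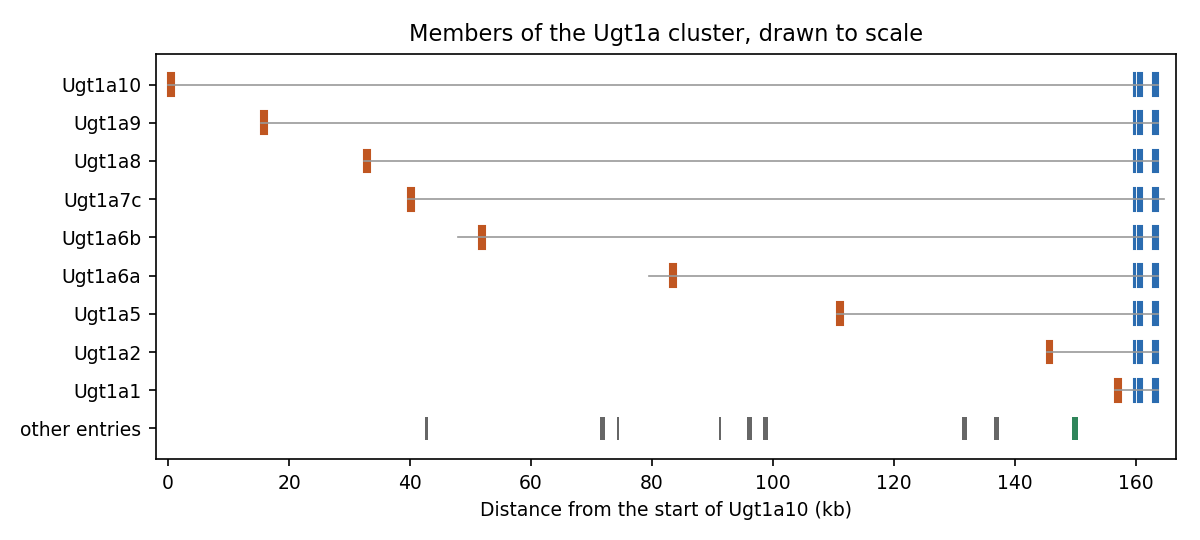
Map of the Ugt1a locus, with distance from the start of Ugt1a10 in kb on the x axis. Each row is 1 member, with its own first coding exon in orange and the 4 common exons in blue. The bottom row shows 8 pseudogenes in grey and Dnajb3 in green.

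The junctions between a first exon and exon 2 show what a read can tell. They are given 5′ to 3′, with the last 30 bases of the member's own exon in lower case and the first 30 bases of the common exon 2 in capitals, for the members on which the results turn.
Ugt1a6a: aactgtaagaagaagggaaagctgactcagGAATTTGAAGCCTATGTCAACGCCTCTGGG
Ugt1a6b: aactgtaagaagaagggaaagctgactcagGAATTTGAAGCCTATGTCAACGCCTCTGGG
Ugt1a5: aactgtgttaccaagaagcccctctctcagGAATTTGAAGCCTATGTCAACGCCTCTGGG
Ugt1a7c: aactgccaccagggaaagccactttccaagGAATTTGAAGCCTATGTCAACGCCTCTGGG
Ugt1a1: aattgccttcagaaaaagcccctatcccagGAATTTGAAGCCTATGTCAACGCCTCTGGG
The capitals are the same in all members. The lower-case ends of Ugt1a6a and Ugt1a6b are also the same, so a read over this junction does not separate this pair. Ugt1a2, not printed here, has the same 30 lower-case bases as Ugt1a5, so their junctions do not separate them either.

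Within the first coding exon, the Ugt1a6 pair can be separated only further from the junction. Annotated sequence upstream of the first coding exons was not compared. The first coding exons of Ugt1a6a and Ugt1a6b were 96.5% identical, with 33 mismatches over 938 aligned bases, and 48.3% of the 50-base windows of Ugt1a6b were also found in Ugt1a6a. The next most similar pair, Ugt1a10 and Ugt1a9, was 91.7% identical, and Ugt1a6a was 63.0% identical to Ugt1a1. The stretch where the Ugt1a6 pair differs most has its 9 differing bases in capitals, at chr1:88138769-88138828 for Ugt1a6a and chr1:88107237-88107296 for Ugt1a6b.
Ugt1a6a: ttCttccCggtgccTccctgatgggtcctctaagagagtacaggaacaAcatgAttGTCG
Ugt1a6b: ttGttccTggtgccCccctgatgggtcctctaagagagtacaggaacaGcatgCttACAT
The division of counts between Ugt1a6a and Ugt1a6b is therefore uncertain, while their total and the total of the cluster do not depend on it.

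The whole cluster was far higher in the Tgfbr1/2 DKO than in any other group. The expected counts of the 9 members summed to 150 in Postn-Cre control HK3, 168 in Postn-Cre control HK4, 132 in HK15, 123 in HK16, 144 in HK6, 132 in HK7, 2841 in HK2 and 2282 in Tgfbr1/2 DKO HK4. In CPM the sums were 5.78 and 7.31 in the Postn-Cre control and 5.18 and 5.73 in the Smad2/3 DKO. They were 4.94 and 4.54 CPM in the Tcf21-Cre control and 87.2 and 76.2 CPM in the Tgfbr1/2 DKO. Both Tgfbr1/2 DKO libraries lay above all 6 others, which spanned less than the gap between the 2 Tgfbr1/2 DKO libraries. Group means were 4.74 ± 0.288 CPM in the Tcf21-Cre control, 5.46 ± 0.384 in the Smad2/3 DKO, 6.55 ± 1.08 in the Postn-Cre control and 81.7 ± 7.72 in the Tgfbr1/2 DKO (SD, n = 2 each). The first 3 lay close together in that order, and Postn-Cre control HK3 and HK16 differed by less than the spread within either group. Levels set across the runs also differ in Cre driver and sequencing run, which cannot be told apart.

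**Figure D2:**
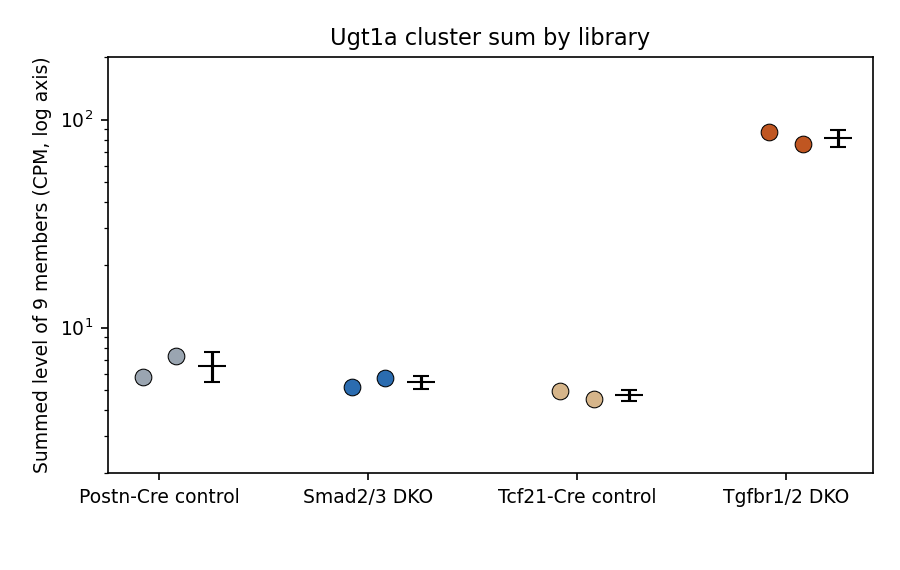
Summed level of the 9 members in CPM on a log axis, with 1 point per library and the group mean ± SD beside the points (n = 2 libraries). Both Tgfbr1/2 DKO libraries sit at 76.2 CPM or above, and the 6 other libraries at 7.31 CPM or below.

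The Tgfbr1/2 DKO mean was 17.2 times that of its control, and the Smad2/3 DKO mean was 0.833 times that of its control. Fitted with edgeR after replacing the 9 members by their sum, the log2 fold change was 4.19 ± 0.21 (SE) for Tgfbr1/2 and -0.32 ± 0.46 for Smad2/3. The difference between these effects, Smad2/3 minus Tgfbr1/2, was -4.51 ± 0.34. Of the genes tested beside the sum in the Tgfbr1/2 comparison, 41 of 16650 had a larger positive log2 fold change, and 34 of these were called. In the Smad2/3 comparison each library held 123 to 168 counts for the cluster, and a change of the size of its SE was not detectable.

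All 9 members passed the low-count filter in each fit. In the Tgfbr1/2 comparison, 9 of 9 were called higher at an adjusted p under 0.05 (percent of all tested genes called higher 2.64%, and lower 1.31%). These calls were used to choose the members, and nothing is read from their number. The groups did not overlap for any of the 9. The median log2 fold change of the members was 4.21, beside -0.01 over all tested genes. In the Smad2/3 comparison 0 were called, also by DESeq2 (background 0.451% higher and 0.844% lower). The groups did not overlap there for 2 members, Ugt1a1 and Ugt1a6b, both lower in the DKO. The share of all tested genes without overlap was not worked out for either comparison, so nothing is read from the overlaps. The median log2 fold change of the members in the Smad2/3 comparison was -0.48, beside 0.01 over all tested genes. For the difference between the effects, 3 members (Ugt1a1, Ugt1a6a and Ugt1a6b) were called lower (background 1.17% lower and 0.664% higher). This contrast contains the libraries by which the members were chosen, so nothing is read from that number either. Without HK15, HK16, HK6, HK7, HK2 or Tgfbr1/2 DKO HK4 in turn, that number was 2.

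Ugt1a6a, the phenol-conjugating member, held the most counts in every library except HK16. Expected counts of 41.3 and 29.7 were found for it in the Postn-Cre control and of 32.0 and 33.5 in the Smad2/3 DKO, with overlapping CPM. They were 84.8 in HK6, 55.5 in HK7, 1170 in HK2 and 911 in Tgfbr1/2 DKO HK4. In CPM this was 2.91 and 1.90 in the Tcf21-Cre control against 35.9 and 30.4 in the Tgfbr1/2 DKO. The fitted log2 fold changes were 3.87 ± 0.28 (SE) in the Tgfbr1/2 comparison and -0.11 ± 0.81 in the Smad2/3 comparison.

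Ugt1a6b, the near copy of Ugt1a6a, had the largest fitted value of the 9. It had 22.4 and 15.3 counts in the Postn-Cre control, 13.3 and 13.4 in the Smad2/3 DKO, 20.3 and 20.9 in the Tcf21-Cre control, and 801 and 608 in the Tgfbr1/2 DKO. The control values of the Tcf21 run were close to each other, at 0.694 and 0.717 CPM, and the DKO values were 24.6 and 20.3 CPM. The fitted log2 fold changes were 5.07 ± 0.32 in the Tgfbr1/2 comparison and -0.48 ± 1.08 in the Smad2/3 comparison.

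Ugt1a5 and Ugt1a7c stood next. Ugt1a5 had 6.45 and 7.30 counts in the Tcf21-Cre control and 167 and 128 in the Tgfbr1/2 DKO, a log2 fold change of 4.45 ± 0.53. In the Postn run it had 11.0, 23.5, 12.2 and 37.4 counts in Postn-Cre control HK3 and HK4, HK15 and HK16. HK16 was highest and Postn-Cre control HK4 next, so the groups overlapped. Ugt1a7c had 7.45 and 12.3 counts in the Tcf21-Cre control and 142 and 135 in the Tgfbr1/2 DKO, a log2 fold change of 3.83 ± 0.54. Its values in the Postn run were 11.0, 28.5, 14.1 and 6.44 in the same order, also with overlap.

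The other 5 members (Ugt1a1, Ugt1a2, Ugt1a8, Ugt1a9 and Ugt1a10) moved almost as 1. In the Tgfbr1/2 DKO all lay between 98.5 and 116 counts, and in the Tcf21-Cre control between 4.45 and 7.45. Their log2 fold changes in that comparison ran from 3.85 ± 0.56 (Ugt1a10) to 4.25 ± 0.60 (Ugt1a2). The bilirubin enzyme Ugt1a1 had 20.5 and 15.0 counts in the Postn-Cre control and 12.1 and 6.44 in the Smad2/3 DKO, without overlap. Its log2 fold change was -1.01 ± 1.15 there, within 1 SE of 0, and 4.20 ± 0.60 in the Tgfbr1/2 comparison.

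**Figure D3:**
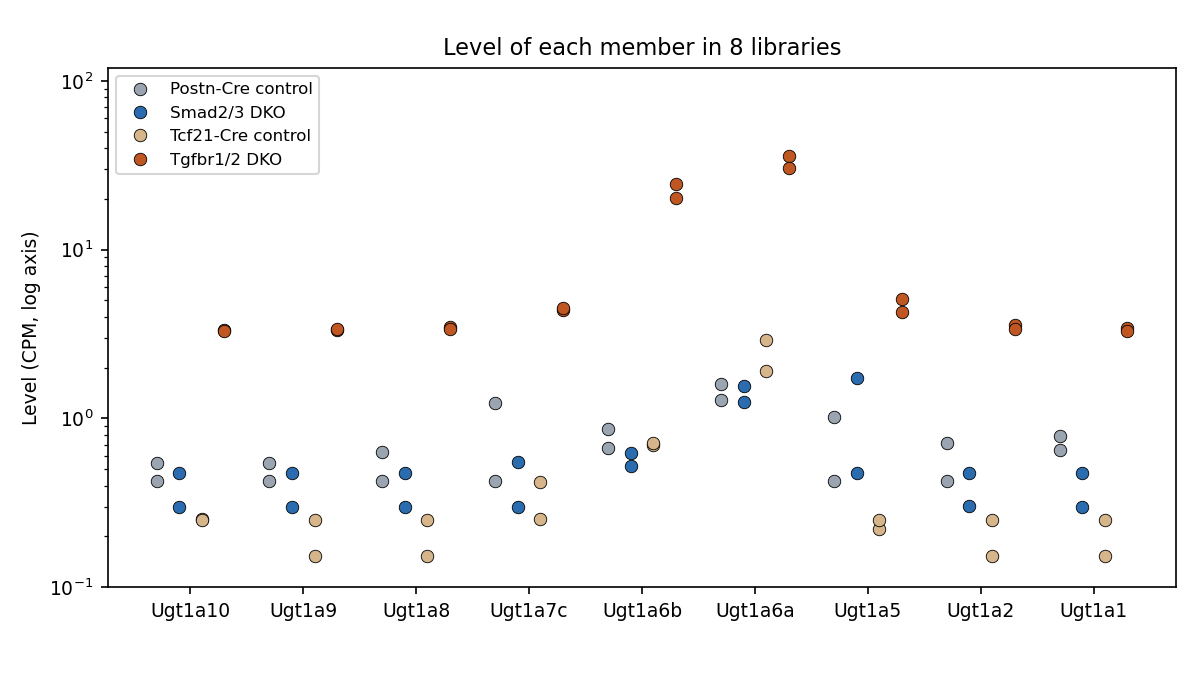
Level of each member in CPM on a log axis, in the order of the first exons along the chromosome, with 1 point per library coloured by group. The Tgfbr1/2 DKO points lie above all others for each member, highest for Ugt1a6a (35.9 and 30.4 CPM) and Ugt1a6b (24.6 and 20.3 CPM).

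Many members had not only near-equal but identical counts. In HK3, 6 members had the same expected count to within 0.0001, at 11.0, and in HK7 the number was also 6, at 7.30. The number of members at the smallest value was 2 in Postn-Cre control HK4, 4 in HK15, 5 in HK16 and 4 in HK6. It was 1 in each Tgfbr1/2 DKO library, where 2 members lay within 1 count of the smallest value, so exact equality was not seen there. The 5 members with the lowest counts then lay between 109 and 116 in HK2 and between 98.5 and 102 in the other library. Equal fractional counts are what an even division of reads over all 9 entries gives, but how reads that match several genes were handled is not given in the sources used here. If reads were so divided, the smallest member's count is the most that an even share can be, and the counts above it are a member's own or were divided among fewer entries. In the Tgfbr1/2 DKO libraries this reading rests on near-equal, not equal, values.

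On that reading, which was not tested, 9 times the smallest member made up 27.8% of the cluster's counts in HK6, 49.6% in HK7, 34.5% in HK2 and 38.8% in Tgfbr1/2 DKO HK4. In the Postn run it made up 47.1% to 82.5%. The shared level itself rose with the cluster, from 1.81 ± 0.620 CPM in the Tcf21-Cre control to 29.9 ± 0.353 CPM in the Tgfbr1/2 DKO (SD, n = 2), which is 16.5 times. The counts above it went from 2.93 ± 0.907 to 51.8 ± 7.37 CPM, which is 17.7 times. These factors are close to each other.

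Of the counts above the smallest member in the Tgfbr1/2 DKO, 94.3% in HK2 and 94.7% in HK4 belonged to Ugt1a6a and Ugt1a6b together. In the Tcf21-Cre control the share was 92.3% and 92.5%, and in the Postn run it ran from 36.0% to 91.1% of only 23.1 to 65.0 counts. For the pair this was 1753 and 1322 counts in the Tgfbr1/2 DKO against 96.2 and 61.8 in its control. Per kb of first coding exon, Ugt1a6a stood at 1112 and 852 counts above the smallest member and Ugt1a6b at 738 and 543 in the Tgfbr1/2 DKO libraries. Ugt1a5 had 65.0 and 33.2 and Ugt1a7c 36.4 and 39.6 such counts per kb. For Ugt1a7c this is an upper limit for the first exon, since its annotation also runs further at the 3′ end, to 88220002, with 2316 bases in its later exons against 1311 to 1318 in the other members.

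The remaining 5 members had few counts of their own even where the cluster was high. Above the smallest member, Ugt1a1 had 3.11 counts in HK2 and 0 in Tgfbr1/2 DKO HK4, Ugt1a10 had 0 and 0.289, and Ugt1a9 had 0.580 and 2.43. Ugt1a2 had 7.15 and 2.59, and Ugt1a8 had 4.10 and 3.08. A value of 0 here marks the smallest member itself. It is set by the subtraction and is not an observed count of 0, so no counting limit is given for it. Nearly all the counts behind the fitted values of these members are thus of the size held by every member, and a change of their own was not detectable at this depth.

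Within the Ugt1a6 pair, the split also differed between the groups of the Tcf21 run. The ratio of Ugt1a6a to Ugt1a6b counts above the smallest member was 5.09 in HK6 and 3.53 in HK7, against 1.53 in HK2 and 1.60 in Tgfbr1/2 DKO HK4. Ugt1a6a went from 2.20 ± 0.782 to 29.9 ± 3.84 CPM, which is 13.6 times, and Ugt1a6b from 0.504 ± 0.0526 to 19.1 ± 2.98 CPM, which is 37.9 times (SD, n = 2). The groups did not overlap in the ratio, but the counts behind it in the control were 15.8 and 13.7 for Ugt1a6b, and the reads common to the pair can be divided in more than 1 way.

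**Figure D4:**
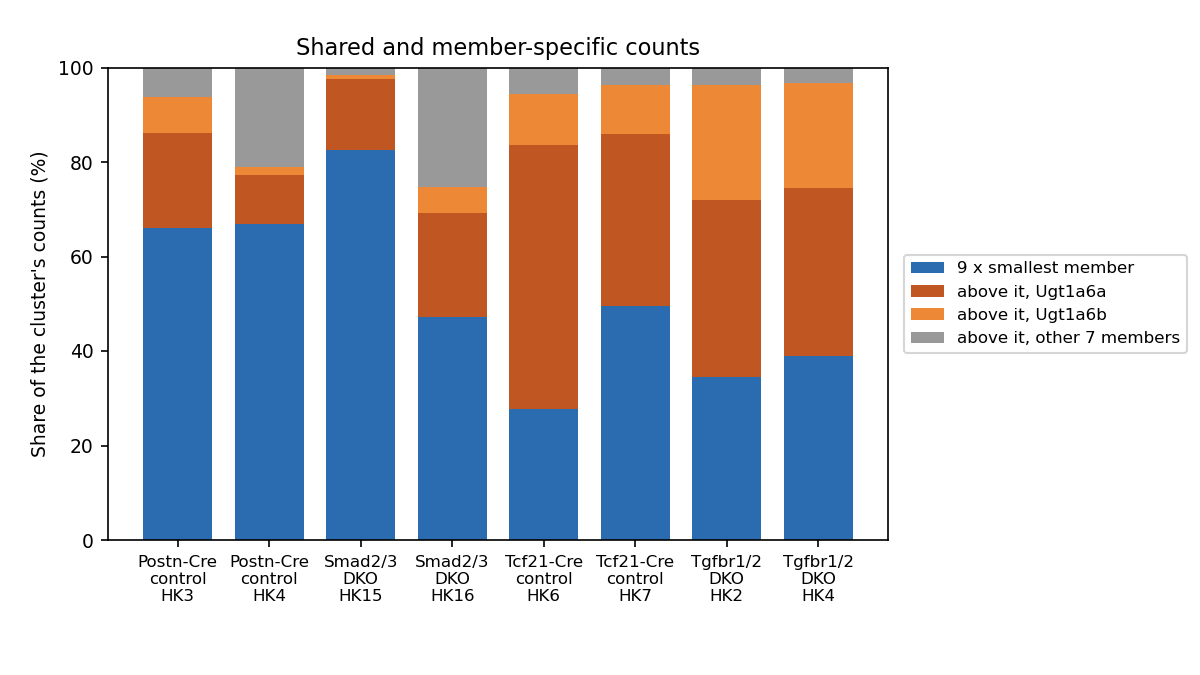
Share of the cluster's expected counts in each library, in percent. Blue is 9 times the smallest member, the orange tones are the counts of Ugt1a6a and Ugt1a6b above it, and grey is the same for the other 7 members. Grey takes under 10% in each library of the Tcf21 run, and the blue part is between 27.8% and 49.6% there.

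Other entries inside the locus were counted too. Gm20528, annotated antisense across the whole cluster, had 1.35 and 1.84 counts in the Tcf21-Cre control and 37.3 and 29.6 in the Tgfbr1/2 DKO. No strand-marking step is described for these libraries, so its reads cannot be told apart from those of the cluster. The 8 pseudogenes summed to 4.00 and 5.50 counts in the Tcf21-Cre control and to 72.7 and 48.0 in the Tgfbr1/2 DKO. In the Postn-Cre control they had 16.0 and 58.6 counts, so those of the Postn run and the Tcf21 run overlapped. Dnajb3, a chaperone gene nested in the cluster on the minus strand, had 2.00 and 6.00 counts in the Tcf21-Cre control and 28.6 and 12.0 in the Tgfbr1/2 DKO.

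Of 10 genes in and around the locus, 8 were tested in the Tgfbr1/2 comparison. None was called higher and 2 fell, where 1.31% of all tested genes fell. An unadjusted p under 0.05 was found for 4 of the 8, and DESeq2 called 2. Over all tested genes that p was found for 3332 of 16658, and DESeq2 called 1134 in all. The median log2 fold change of the list was -0.46 beside -0.01 over all tested genes. Hjurp, a chaperone of the centromeric histone Cenpa, had 38.7 and 66.9 CPM in the Tcf21-Cre control and 18.4 and 12.9 in the Tgfbr1/2 DKO. It fell by 1.70 ± 0.31 on the log2 scale (edgeR's quasi-likelihood test, adjusted p = 0.0236). Heatr7b1 had 12.3 and 22.8 CPM against 4.75 and 4.18 and fell by 1.91 ± 0.35 (adjusted p = 0.0192). Both calls were lost without HK7 (adjusted p = 0.0551 and 0.0877) and without Tgfbr1/2 DKO HK4 (0.0991 and 0.0715), and that of Heatr7b1 also in a fit of all 8 libraries (0.0535). The nested Dnajb3 had a log2 fold change of 2.25 ± 0.96 and was not called (adjusted p = 0.224). Of the other highest members of this list, Dgkd had 25.2 and 20.6 CPM in the Tcf21-Cre control and 22.2 and 21.4 in the Tgfbr1/2 DKO, and Atg16l1 had 21.8 and 15.1 against 12.3 and 12.0. In the Smad2/3 comparison edgeR called 0 of 7 tested, with 0 at an unadjusted p under 0.05 and 0 by DESeq2.

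Promoters of 8 of the 9 members were found in the RefSeq table (GRCm38.p6), and Ugt1a6b was not among them. The 250 bases before the start of Ugt1a6a, the member with the most counts, are chr1:88134559-88134808 on the plus strand and are printed 5′ to 3′, since the members were high together.
Ugt1a6a promoter: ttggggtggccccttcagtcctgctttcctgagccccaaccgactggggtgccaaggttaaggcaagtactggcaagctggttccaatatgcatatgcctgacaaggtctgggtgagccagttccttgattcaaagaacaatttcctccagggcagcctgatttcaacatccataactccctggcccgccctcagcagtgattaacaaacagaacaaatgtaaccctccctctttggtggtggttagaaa
Searched on both strands, the Ahr core GCGTG was found in Ugt1a5, 49 bases before the start, and in Ugt1a8, 70 bases before it, and in none of the other 6. It stands in 28.2% of all 32851 promoters of this length. Neither TGACNNNGC, the core of the Nrf2 element, nor GTCTAGAC, the Smad palindrome, was found in any of the 8, beside 10.2% and 0.167% of all promoters. These matches are descriptions of letters in these windows.

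The other UDP-glucuronosyltransferases were nearly silent. Of 13 genes of the Ugt2, Ugt3 and Ugt8 families, 12 were in the tables, 6 of them were at 0 in every library, and none had enough counts to be tested. Their sum was at most 0.385 CPM, in Postn-Cre control HK3, and 0 and 0.0334 CPM in the Tgfbr1/2 DKO. Ugt2b34, the highest of them on average, had 0 counts in all 4 DKO libraries.

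The next list held genes that supply or use UDP-glucuronic acid, split the conjugates or export them. Of 13 tested, 1 rose in the Tgfbr1/2 comparison and none fell (2.64% of all tested genes rose). In that comparison 6 had an unadjusted p under 0.05, as did 3332 of all 16658 tested genes. DESeq2 called 2 of the list and 1134 genes in all. The list's median log2 fold change was 0.42 beside -0.01 over all tested genes. In the Smad2/3 comparison 0 were called, also by DESeq2, and 0 had an unadjusted p under 0.05 (median -0.17 beside 0.01). Slc35b1, a nucleotide transporter of the endoplasmic reticulum, had 12.7 and 15.1 CPM in the Tcf21-Cre control and 35.8 and 23.8 in the Tgfbr1/2 DKO, and rose by 1.17 ± 0.24 on the log2 scale (edgeR's quasi-likelihood test, adjusted p = 0.0286). The call was lost without HK6 (adjusted p = 0.0923), HK7 (0.0541) or HK2 (0.169) and in a fit of all 8 libraries (0.225). Ugdh, which makes UDP-glucuronic acid, had 648 and 421 CPM in the Tcf21-Cre control and 395 and 551 in the Tgfbr1/2 DKO. Ugp2, the enzyme that makes UDP-glucose, had 230 and 216 against 159 and 203, and Abcc1, an exporter of conjugates, 73.9 and 61.7 against 95.1 and 92.0. None of these 3 was called. Abcc1 was higher and Ugp2 lower in both Tgfbr1/2 DKO libraries, and the Ugdh groups overlapped.

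Of 9 tested genes of haem and bilirubin handling, which precedes the Ugt1a1 reaction, edgeR called 0 in either comparison. In the Tgfbr1/2 comparison 5 had an unadjusted p under 0.05 and DESeq2 called 1, beside 3332 of 16658 and 1134 over all genes. In the Smad2/3 comparison both numbers were 1, beside 2137 of 15760 and 769 over all genes. The median log2 fold change of the 9 was 0.55 in the Tgfbr1/2 comparison and -0.21 in the Smad2/3 comparison. Hmox1, the haem oxygenase, differed between replicates more than between groups, with 2670 CPM in HK6 and 355 in HK7 against 282 in HK2 and 984 in Tgfbr1/2 DKO HK4. The ferritin chains Fth1 (930 and 807 against 1207 and 1186 CPM) and Ftl1 (1482 and 1133 against 1908 and 1994) were higher in both Tgfbr1/2 DKO libraries but did not pass the test.

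Of the Ahr pathway, 1 of 9 tested genes rose in the Tgfbr1/2 comparison and none fell (median log2 fold change -0.03 beside -0.01 over all tested genes), and in the Smad2/3 comparison 1 fell (median -0.45 beside 0.01). Over all tested genes 2.64% rose in the first and 0.844% fell in the second. An unadjusted p under 0.05 was found for 3 and 4 of the 9, and DESeq2 called 2 and 3. Over all tested genes that p was found for 3332 of 16658 and 2137 of 15760, and DESeq2 called 1134 and 769. Cyp1b1, a monooxygenase induced through Ahr, had 113 and 143 CPM in the Tcf21-Cre control and 258 and 266 in the Tgfbr1/2 DKO. It rose by 1.12 ± 0.21 on the log2 scale (edgeR's quasi-likelihood test, adjusted p = 0.0204), a call lost without HK6 (adjusted p = 0.0822) or Tgfbr1/2 DKO HK4 (0.0771). Cyp1a1, the best known Ahr target, had only 0.617 and 0.445 CPM against 0.215 and 0.134. Nqo1, a quinone reductase controlled by both Ahr and Nrf2, had 4.35 and 2.36 against 3.53 and 3.17. Tiparp had 155 and 148 CPM against 99.9 and 176, and Arnt, the partner of Ahr, 186 and 166 against 145 and 164.

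Ahr itself moved in the Smad2/3 comparison. It had 31.9 and 51.4 CPM in the Postn-Cre control and 11.9 and 14.0 in the Smad2/3 DKO, and fell by 1.74 ± 0.31 on the log2 scale (edgeR's quasi-likelihood test, adjusted p = 0.0198). The call was lost without Postn-Cre control HK4 (adjusted p = 0.0675) or HK15 (0.117). In the Tcf21 run it had 5.96 and 5.17 CPM in the control and 12.7 and 10.1 in the DKO, without overlap and without a call. The difference between the effects was -2.86 ± 0.41 (adjusted p = 0.00914). The Ahr target Cyp1a1 had 4.27 and 3.18 CPM in the Postn-Cre control and 16.3 and 7.64 in the Smad2/3 DKO. Its log2 fold change of 1.62 ± 0.49 there was opposite in sign to that of Ahr and was not called. The cluster sum had a log2 fold change of -0.32 ± 0.46 in the Smad2/3 comparison and 4.19 ± 0.21 in the Tgfbr1/2 comparison. A link between Ahr and the cluster was not tested.

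Of the Nrf2 pathway, 2 of 21 tested genes rose in the Tgfbr1/2 comparison and none fell (median log2 fold change 0.25 beside -0.01 over all tested genes), and in the Smad2/3 comparison 2 of 20 fell (median -0.49 beside 0.01). Over all tested genes the shares were 2.64% and 0.844%. An unadjusted p under 0.05 was found for 6 and 9 of the list, and DESeq2 called 2 and 5. Over all tested genes that p was found for 3332 of 16658 and 2137 of 15760, and DESeq2 called 1134 and 769. G6pdx, the first enzyme of the pentose phosphate pathway, had 65.1 and 66.9 CPM in the Tcf21-Cre control and 153 and 124 in the Tgfbr1/2 DKO, a rise of 1.14 ± 0.18 on the log2 scale (edgeR's quasi-likelihood test, adjusted p = 0.00947). Mgst1, a microsomal glutathione transferase, had 34.1 and 40.6 CPM against 87.7 and 69.2, a rise of 1.14 ± 0.20 (adjusted p = 0.0146). The Mgst1 call was lost without HK2 (adjusted p = 0.0516) and in a fit of all 8 libraries (0.141).

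The Nrf2 genes that fell in the Smad2/3 DKO were Srxn1 and Slc7a11. Srxn1, a sulfiredoxin, had 447 and 561 CPM in the Postn-Cre control and 132 and 155 in the DKO and fell by 1.87 ± 0.17 (edgeR's quasi-likelihood test, adjusted p = 0.000827; 0.109 in a fit of all 8 libraries). Slc7a11, the cystine transporter, had 96.0 and 308 CPM against 34.7 and 27.7 and fell by 2.74 ± 0.45 (adjusted p = 0.0236), a call lost without HK15 (0.464) or HK16 (0.679) and in a fit of all 8 libraries (0.372). In the Tcf21-Cre control the same genes differed between replicates: Slc7a11 had 122 CPM in HK6 and 4.07 in HK7, and Srxn1 230 and 69.0. The summed Nrf2 list was at 5107 CPM in HK6 and 1949 in HK7, of which Hmox1 held 2670 and 355 CPM. The Ugt1a sums were 4.94 and 4.54 CPM there, and a link between the list and the cluster was not tested. Nfe2l2 itself had 405 and 259 CPM in the control and 266 and 385 in the Tgfbr1/2 DKO, and Gstm1, a glutathione transferase, 996 and 836 against 900 and 786.

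Other conjugating and drug-metabolising enzymes showed 1 rise among 23 tested genes in the Tgfbr1/2 comparison (median log2 fold change 0.32 beside -0.01) and 1 among 22 in the Smad2/3 comparison (median -0.01 beside 0.01). Over all tested genes 2.64% and 0.451% rose, and DESeq2 also called 1 of the list in each. Gstp1, a glutathione transferase, had 31.5 and 23.7 CPM in the Tcf21-Cre control and 64.9 and 48.7 in the Tgfbr1/2 DKO and rose by 1.12 ± 0.21 (edgeR's quasi-likelihood test, adjusted p = 0.0185). The call was lost without HK7 (adjusted p = 0.0694) or HK2 (0.0807) and in a fit of all 8 libraries (0.103). Gstp1 has near copies in the genome, so its counts are uncertain. Fmo2, a flavin monooxygenase, had 48.0 and 35.5 CPM in the Postn-Cre control and 608 and 743 in the Smad2/3 DKO and rose by 3.96 ± 0.21 (adjusted p = 5.01e-06), and the difference between the effects was 3.37 ± 0.28 (adjusted p = 0.000306). Papss2, which makes the sulfate donor, had 246 and 175 CPM in the Tcf21-Cre control against 103 and 132 in the Tgfbr1/2 DKO, and the cytochrome reductase Por 113 and 76.0 against 90.6 and 135. Neither was called.

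Of the transcription factors reported to control UGT1A genes, 2 of 11 tested rose in the Tgfbr1/2 comparison and none fell. Over all tested genes 2.64% rose, and the median log2 fold change was 0.28 beside -0.01. An unadjusted p under 0.05 was found for 4, beside 3332 of all 16658, and DESeq2 called 3, beside 1134 in all. In the Smad2/3 comparison 0 of 12 were called, with a median of -0.01 beside 0.01. There that p was found for 1, beside 2137 of all 15760, and DESeq2 called 1, beside 769 in all. Pparg, a nuclear receptor of lipid metabolism, had 1.34 and 0.924 CPM in the Tcf21-Cre control and 4.29 and 3.67 in the Tgfbr1/2 DKO, a rise of 1.90 ± 0.45 (edgeR's quasi-likelihood test, adjusted p = 0.0444). Its call was lost without any 1 of the 4 libraries (adjusted p = 0.0749 without HK6, 0.131 without HK7, 0.143 without HK2 and 0.137 without Tgfbr1/2 DKO HK4). Nr1h3, the oxysterol receptor LXRα, had 6.23 and 6.71 CPM against 23.6 and 12.5, a rise of 1.54 ± 0.31 (adjusted p = 0.0245), which was lost without HK6 (0.0893), HK7 (0.0712) or HK2 (0.167). Both were also lost in a fit of all 8 libraries (0.231 for Pparg and 0.0887 for Nr1h3). Nr1i2 (PXR), which induces UGT1A genes in liver, was at 1.49 CPM or below in every library, and Cdx2, Foxa1 and Foxa2 were at 0. The list's highest members were not called in that comparison: Nr3c1, the glucocorticoid receptor, had 196 and 204 CPM against 132 and 111, Rxra 75.8 and 84.5 against 106 and 83.3, and Ppard 41.3 and 23.7 against 46.8 and 45.5. For Ppard the difference between the effects was -1.71 ± 0.36 (adjusted p = 0.0411), lost when most single libraries were left out. The adjusted p was then above the threshold without Postn-Cre control HK3 (0.0927) or HK4 (0.0507), HK15 (0.0975), HK16 (0.086), HK7 (0.116), HK2 (0.0966) or Tgfbr1/2 DKO HK4 (0.152).

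**Figure D5:**
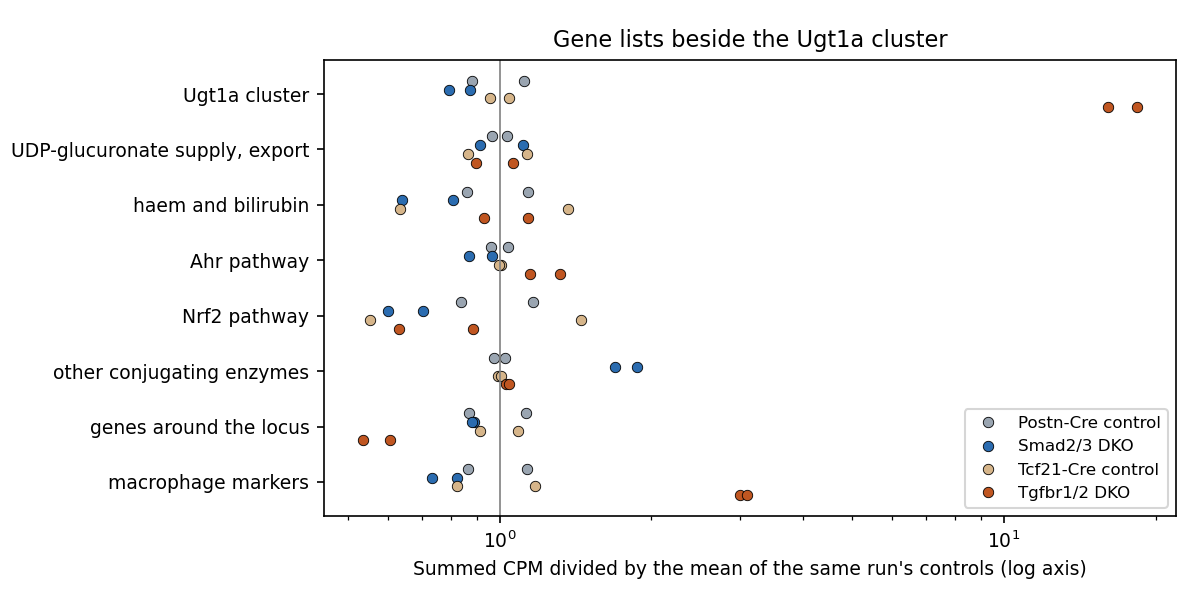
Summed CPM of the Ugt1a cluster and of 7 gene lists in each library, divided by the mean of the 2 control libraries of the same run, on a log axis, with 1 point per library coloured by group. The Tgfbr1/2 DKO points of the cluster lie farther from the line at 1 than those of any list shown, and the macrophage markers come next.

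Several macrophage markers moved with the cluster. The 7 macrophage markers summed to 41.2 and 59.0 CPM in the Tcf21-Cre control and 150 and 155 in the Tgfbr1/2 DKO, and to 17.3 to 26.7 CPM in the Postn run. In the Tgfbr1/2 comparison 3 of 7 rose, where 2.64% of all tested genes did: Emr1 by 2.46 ± 0.56, Csf1r by 1.34 ± 0.30 and Cd14 by 1.86 ± 0.38 on the log2 scale (edgeR's quasi-likelihood test, adjusted p = 0.0396, 0.0381 and 0.025). Emr1, the F4/80 antigen, had 0.411 and 1.13 CPM in the control and 3.90 and 4.21 in the DKO, and Lyz2, which was not called (adjusted p = 0.103), 9.90 and 26.6 against 82.5 and 90.6. Cd68 had 22.1 and 13.8 CPM against 18.4 and 15.5, with overlap. C1qa and C1qb had log2 fold changes of 2.13 ± 0.64 and 2.58 ± 0.91 and were not called. Of the 7 markers, 6 had an unadjusted p under 0.05, beside 3332 of all 16658 tested genes. DESeq2 called 5 of them, beside 1134 in all. The list's median log2 fold change was 2.13 beside -0.01 over all tested genes. The Emr1 call was lost without HK6 (0.105), HK2 (0.0577) or Tgfbr1/2 DKO HK4 (0.124), and the other two without HK6 (0.116 for Csf1r and 0.0789 for Cd14) or Tgfbr1/2 DKO HK4 (0.224 and 0.0946). All 3 were lost in a fit of all 8 libraries (0.274 for Emr1, 0.164 for Csf1r and 0.134 for Cd14). The part of macrophage RNA in the cluster's difference was not tested. In bulk samples, more cells of a type and more RNA per cell cannot be told apart.

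Hepatocyte markers were near 0. The 5 hepatocyte markers summed to at most 1.73 CPM in any library, with 1.10 and 0.479 in the Tcf21-Cre control and 0.767 and 1.07 in the Tgfbr1/2 DKO, and 1 of 5 was tested and not called. The 9 epicardial, mesothelial and epithelial markers summed to 2.84 and 2.33 CPM against 6.60 and 2.57, and of 3 tested none was called, with 2 at an unadjusted p under 0.05 and 0 by DESeq2. Of the 3 tested, Upk3b (0.754 and 0.342 against 3.59 and 0.902 CPM) and Msln (0.0685 and 0.137 against 1.35 and 0.468) were higher in both Tgfbr1/2 DKO libraries. Wt1 was lower in both, with 1.61 and 1.54 against 0.982 and 0.668 CPM. The epithelial Epcam had 0 and 0.205 against 0.123 and 0.267. The part of these markers in the cluster's difference was not tested. The 8 endothelial markers summed to 437 and 393 CPM against 521 and 491, where Eng, a TGFβ co-receptor, rose by 0.78 ± 0.18 (edgeR's quasi-likelihood test, adjusted p = 0.0423, and above the threshold in a fit of all 8 libraries, at 0.0673, or without any 1 library, at up to 0.168 without Tgfbr1/2 DKO HK4). Eng held 190 and 172 CPM of the endothelial sum in the control and 310.5 and 279 in the DKO. Tek, the only endothelial marker with a negative log2 fold change, had 163 and 124 against 88.0 and 81.8 CPM and was not called. The median log2 fold change of the 8 was 0.62, with 4 at an unadjusted p under 0.05 and 2 called by DESeq2. None of the 6 cardiomyocyte, 5 pericyte and smooth muscle or 9 fibroblast markers was called in the Tgfbr1/2 comparison. Of these, 2, 1 and 0 had an unadjusted p under 0.05, and DESeq2 called 1, 0 and 0. For all marker lists of this comparison, the numbers over all tested genes were 3332 of 16658 at that p and 1134 by DESeq2. In the Smad2/3 comparison the fibroblast collagens Col1a1 and Col1a2 fell by 1.69 ± 0.17 and 1.44 ± 0.14 (adjusted p = 0.0011 for both), and the pericyte channel gene Kcnj8 fell by 3.17 ± 0.54 (adjusted p = 0.0177, and 0.0644 without Postn-Cre control HK3).

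The genes whose levels followed the cluster sum most closely were picked among 7814 genes with a mean of at least 10 CPM, by Pearson's r over the 8 libraries on log2(CPM + 1) centred within each run. The value is a description, since the 2 Tgfbr1/2 DKO libraries stand apart from the rest and set it. Timp1, an inhibitor of matrix metalloproteinases (r = 0.995), had 104 and 123 CPM in the Tcf21-Cre control and 938 and 829 in the Tgfbr1/2 DKO, with 93.8 to 101 CPM in the Postn run. Serpina3m, a secreted protease inhibitor (r = 0.992), had 0.411 and 0.274 CPM against 55.0 and 65.2, and belongs to a multigene family whose counts are uncertain. Ifitm2, an interferon-induced membrane protein (r = 0.986), had 777 and 872 against 1696 and 1602. Cyfip1 (r = 0.983) had 97.4 and 94.7 CPM against 132 and 127, and Rpn1, a subunit of the oligosaccharyltransferase of the endoplasmic reticulum (r = 0.981), 142 and 139 against 263 and 259.

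The authors' deposited table lists a log2 fold change of 0 for all 9 members in the Smad2/3 comparison. For Tgfbr1/2 the authors' deposited table gives 3.23 for Ugt1a6b, 2.60 for Ugt1a6a and 1.09 for Ugt1a5. For the other 6 members the authors' deposited table gives 0.46 (Ugt1a7c) to 0.65 (Ugt1a2). These Tgfbr1/2 values are all below the values fitted here from the counts. A value of 0 is listed for Ugt1a1 in the Smad2/3 comparison, although its counts differed between the groups. The authors' values may therefore be another measure than a fold change of these counts, and their sizes are not compared further. Ugt1a7c, which had more counts above the smallest member in the Tgfbr1/2 DKO than Ugt1a1, Ugt1a2, Ugt1a8, Ugt1a9 and Ugt1a10, has the lowest value there.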

How the data were processed

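The authors deposited an expected count per gene and library, named raw in the file headers, of which 12.6% of those above 0 were whole numbers. They also deposited a log2 fold change per gene, per the file headers. Per the submitters' processing notes, the genome build was mm10. The counting tool, and what it did with reads matching more than 1 gene, are not stated in the labels or headers.

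Expected counts were rounded and entries of one symbol summed. The 4 libraries of a comparison were fitted together in edgeR 4.0.16 (R 4.3.3) by a two-sided, robust quasi-likelihood F test after filterByExpr and TMM scaling, with Benjamini-Hochberg adjustment over all tested genes and a threshold of 0.05. This called 204 of 15760 genes in the Smad2/3 comparison and 659 of 16658 in the Tgfbr1/2 comparison. For the difference, an interaction over all 8 libraries, it called 326 of 17770. An unadjusted p under 0.05 was found for 2137, 3332 and 3092 genes in the same order. For the cluster sum, 1 summed entry replaced the 9 members. SEs come from the F statistic. The fits were tested on simulated data.

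Exons are from GENCODE M21. The members, gene lists and naming rule (all members, each list's called genes and its 3 highest genes by mean CPM, and the 5 genes most like the sum) were chosen with earlier results of these data known. Alternatives were size factors of the DESeq2 type, library totals, no filter, DESeq2 1.42.0, all 8 libraries in one fit, a sum without Ugt1a6a and leaving out each library. The HK numbers pair no libraries.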

Additional observations from a re-analysis of the deposited data

Results flagged for a closer look

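The following effects differed between the Smad2/3 and the Tgfbr1/2 comparison. The difference (Smad2/3 effect minus Tgfbr1/2 effect) is on the log2 scale, from the interaction fitted with edgeR over all 8 libraries. It was -4.51 ± 0.34 (SE) for the Ugt1a cluster sum, given as a description with no p. It was -2.86 ± 0.41 for Ahr (adjusted p = 0.00914), -1.43 ± 0.28 for G6pdx (0.0314) and 3.37 ± 0.28 for Fmo2 (0.000306). It was -1.71 ± 0.36 for Ppard (0.0411), -1.71 ± 0.27 for Eng (0.0149) and -3.89 ± 0.69 for Kcnj8 (0.0212). Of these, the difference kept an adjusted p under 0.05 in each of 12 alternative fits for Ahr (at most 0.0352) and Fmo2 (at most 0.00214). It did so in 6 of 12 for G6pdx, 4 of 12 for Ppard, 11 of 12 for Eng and 8 of 12 for Kcnj8, with adjusted p of up to 0.0972, 0.152, 0.0606 and 0.063. The call was lost for G6pdx without Postn-Cre control HK3, HK16, HK6, HK7, HK2 or Tgfbr1/2 DKO HK4 (0.0656 to 0.0972), for Eng without HK16 (0.0606) and for Kcnj8 without Postn-Cre control HK3, HK16, HK7 or Tgfbr1/2 DKO HK4 (0.0502 to 0.063). For Ppard it was lost with scaling by library total (0.0651) and without each library except HK6 (0.0507 to 0.152). Cre driver, sequencing run and targeted genes change together between the comparisons and cannot be told apart.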

How the results depend on the processing

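The cluster sum kept its direction in both comparisons and for the difference under every alternative run. Without Ugt1a6a its log2 fold change was 4.45 in the Tgfbr1/2 comparison and -4.85 for the difference. With each library left out in turn it ran from 4.17 to 4.22 in the Tgfbr1/2 comparison, from -0.46 to -0.15 in the Smad2/3 comparison, the last without Postn-Cre control HK4, and from -4.65 to -4.36 for the difference. The number of members called lower for the difference was 9, not 3, both with no low-count filter and with DESeq2, and nothing is read from it. No single member with a call reversed.

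The number of genes called moved more. With no low-count filter it was 819 for Smad2/3, 1233 for Tgfbr1/2 and 1194 for the difference, and with DESeq2 it was 769, 1134 and 1146. A fit of all 8 libraries called 299 for Tgfbr1/2. Leaving out each library gave 105 to 297 for Smad2/3, 271 to 484 for Tgfbr1/2 and 89 to 302 for the difference. The lowest counts came without HK15, Tgfbr1/2 DKO HK4 and Tgfbr1/2 DKO HK4. The cause was not tested. Scaling by library total alone, chosen after seeing the data, called 90 of 196 genes higher for Smad2/3, against 71 of 204, and 158 of 318 for the difference, against 118 of 326. Fits of list genes under the alternatives, and of all 8 libraries for the members, were also added after seeing the data. A group left with 1 library takes its spread from the other libraries of the fit. No paired analysis was possible because the HK numbers pair no libraries between groups. With 123 to 168 counts for the cluster in 6 libraries, changes among single members there were not detectable.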
